A study of Glycyrrhiza uralensis with 15 samples.

Results

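The genes described here separated licorice seedlings that had received the bacterium Bacillus pumilus strain G5, with or without silicon, from seedlings that had not. In some genes the margin was very small. All were chosen by their expression values. A gene was taken when its 6 libraries from G5-treated seedlings (groups DB and DBSi) all lay above, or all lay below, the 9 libraries of groups DSi, D and CK. Its highest group mean had to reach 5 CPM (counts per 1000000 reads assigned to genes), its DB and DBSi means had to lie within 2-fold of each other, and the largest of its DSi, D and CK means had to be under 2 times the smallest. Of 30197 genes in the table, 191 met these conditions, 32 of them higher and 159 lower with G5. Because this contrast chose the genes, their levels with and without G5 are given as a description, with no test.

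Full-length cDNA of whole Glycyrrhiza uralensis seedlings aged 45 days was read on a nanopore instrument, in 5 groups of 3 libraries. DB seedlings were droughted (35 to 45% of saturation moisture) and received G5, and DBSi seedlings received G5 and silicon, with no moisture or silicon dose given for that group in the labels. DSi seedlings were droughted at the same moisture with silicon at 2 mM, D seedlings were droughted with no addition, and CK seedlings were watered to 65 to 75%. All were sown as 60 seeds per pot in sterilized desert sand without nutrients, and the labels do not say how many plants or pots stand behind a library, so the p-values measure the spread between these libraries, which may be technical. They also do not say whether seedlings without G5 received bacterial medium. Sampling whole plants leaves organs mixed: fewer cells of a type and less RNA per cell cannot be told apart in any result given here.

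Bacillus pumilus is a soil bacterium, and strains of the species are known as plant growth-promoting rhizobacteria, which live on and around roots and are used as inoculants against drought and pathogens. Silicon is taken up by roots as silicic acid and is deposited in cell walls, where it is known to lessen water loss and stress damage in many crops. Licorice is a deep-rooted legume of dry land, whose roots store the triterpenoid glycyrrhizin. The deposited tables give IDs of the form Glyur or ONT and do not pair them with gene names, and no annotation was used here, so the roles of the 191 genes are not described and no pathway list or organ marker could be matched.

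Libraries held 3221579 to 3506836 reads in DB and DBSi and 3039422 to 4043823 in DSi, D and CK, and 23011 to 24586 against 23722 to 25321 genes had a read. Scaling factors from the median of gene ratios, which would be 1 in every library if the typical gene were level, ran from 0.880 (DB-3) to 1.04 in DB and DBSi and from 0.943 to 1.08 in DSi, D and CK. The median log2 difference of all 22654 tested genes between the G5 groups and the rest was accordingly -0.10 on the deposited scale. DB-3, D-2 and CK-3 stood apart from their own groups on the second principal component, with scores of -75.2, -47.3 and -45.4. DBSi-2 scored 8.52 there, against 45.8 and 48.6 in DBSi-1 and DBSi-3. Other libraries also differed from their groups. On the first component (22.1% of variance, against 16.6% for the second), DBSi-1 scored 24.5, against 74.8 and 65.4 in DBSi-2 and DBSi-3. DSi-3 scored -46.8 there, against -7.18 and -3.29 in DSi-1 and DSi-2. The part of these shifts in the lists was not tested, but their effect on list length is given with each count.

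Genes whose G5 libraries did not overlap with the others made up 0.181% of tested genes on the higher side and 0.772% on the lower side. Of 41 such genes on the higher side, 4 were dropped because DB and DBSi means differed by over 2-fold and 5 because DSi, D and CK did. Of 175 on the lower side, 8 were dropped for a low mean, 2 for the DB to DBSi limit and 6 for the limit on the other groups. The conditions were met narrowly by some members: the nearest G5 and other libraries differed by a ratio of 1.002 in the closest higher member and 1.00009 in the closest lower member, against 0.995 and 0.999 in the nearest genes left out. The largest ratio of DB and DBSi means was 1.75 among higher members and 1.69 among lower members, against 2.08 and 2.06 just outside. For the largest over the smallest of DSi, D and CK, higher and lower members reached 1.93 and 1.92, against 2.13 and 2.003 just outside. The smallest highest group mean was 10.7 CPM among higher members, and 5.07 CPM among lower members against 4.54 CPM just outside.

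The size of the 2 lists depended on how libraries were scaled. With median-of-ratios scaling the rule gave 65 higher and 75 lower genes (46.4% higher, against 16.8% as deposited), and with quantile scaling 47 higher and 108 lower (30.3% higher). All 32 higher members and 72 of the 159 lower members were found again with median-of-ratios scaling, and 28 and 94 with quantile scaling. Each of the 191 genes kept the direction of its mean under both scalings, but nothing is read from this. The scalings moved the median log2 difference of all tested genes only from -0.10 to -0.03 and -0.02. The smallest differences among members were 0.36 on the higher side and -0.24 on the lower side. The rule has fewer values to separate when a library is left out, and the count of higher genes was 49 without DB-1, 63 without DB-3 and 62 without DBSi-1. The count of lower genes was 253 without DB-2 and 247 without DSi-2. With DB-3, D-2 and CK-3 left out together, it gave 98 higher and 329 lower genes, and with DBSi-2 left out as well, 114 and 373.

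Differences were mostly modest. The ratio of the mean over 6 G5 libraries to the mean over 9 other libraries ran from 1.29 to 4.80 in the 32 higher members, with a median of 1.84, and 12 of them reached 2-fold. In the 159 lower members the ratio of the other libraries to the G5 libraries ran from 1.19 to 5.63, with a median of 1.48; 24 reached 2-fold and 81 were under 1.5-fold. Among lower members the larger ratios belonged to scarce genes. The median log2 ratio was -0.87 in the 44 lower members under 20 CPM, -0.61 in the 58 from 20 to 100 CPM and -0.46 in the 57 at 100 CPM or more. Higher members had medians of 0.81 (5 genes), 0.87 (17 genes) and 0.90 (10 genes) in the same bands. All tested genes had medians of -0.18, -0.05 and -0.05. Scarce genes also have the larger counting error, and its part in the trend of the lower list was not tested.

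**Figure D1:**
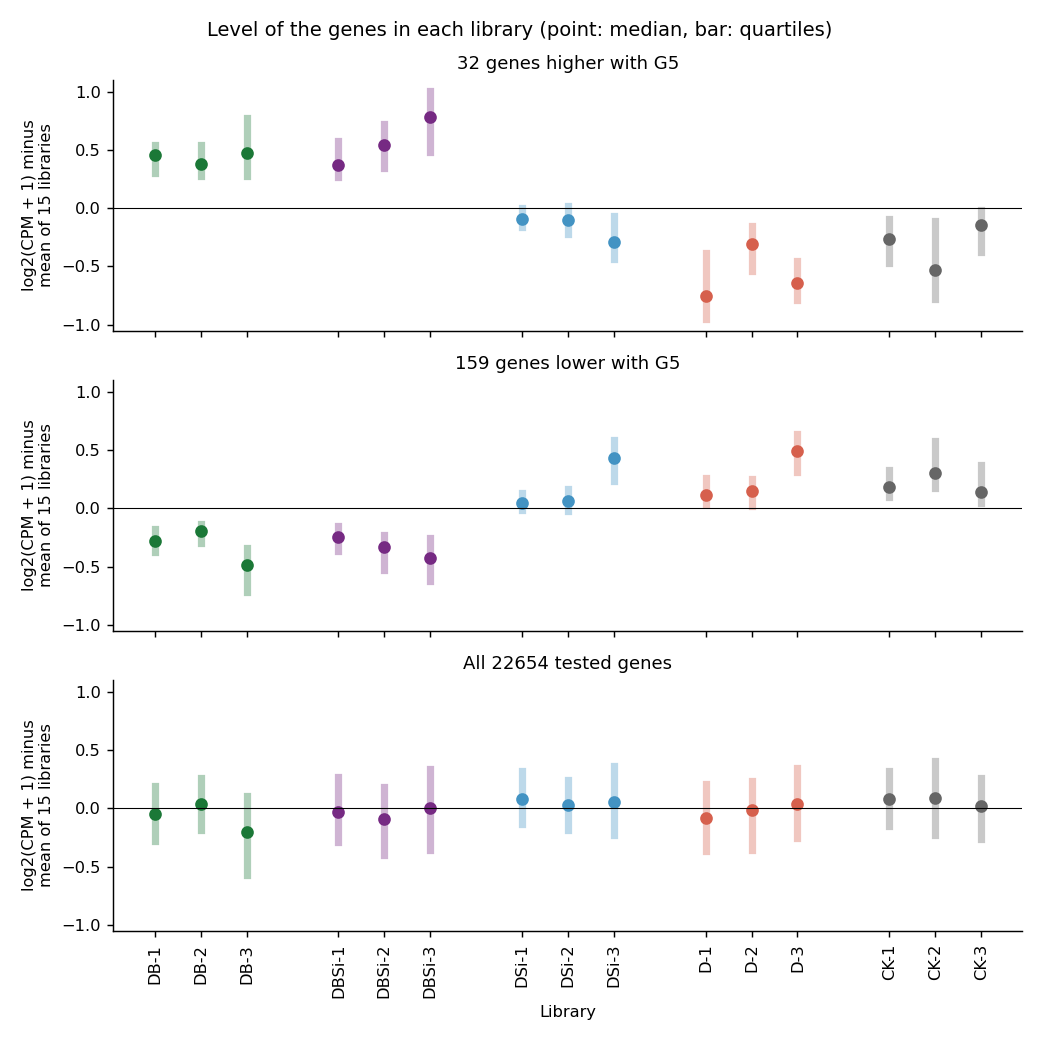
Median (point) and quartiles (bar) of each gene's log2(CPM + 1) minus its mean over 15 libraries, for the 32 higher genes, the 159 lower genes and all 22654 tested genes, by library on the x axis. Medians of the higher genes lie between 0.37 and 0.78 in DB and DBSi, and D-1 is lowest at -0.75; medians of all tested genes lie between -0.20 and 0.09.

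Glyur005703s00047631 had the largest ratio on the higher side. It stood at 11.95, 15.04 and 14.3 CPM in DB and at 15.9, 20.8 and 29.8 CPM in DBSi. It stood at 5.91, 5.10 and 2.47 CPM in DSi, 1.43, 5.59 and 2.13 CPM in D, and 6.15, 0.854 and 4.06 CPM in CK. The G5 libraries lay at least 1.94 times above every other library, and the values rest on 40 to 96 reads per G5 library and 3 to 19 reads per other library. The means were 18.0 ± 6.49 CPM (SD, n = 6 libraries) with G5 and 3.75 ± 2.05 CPM (SD, n = 9 libraries) without, a 4.80-fold difference.

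Glyur000132s00015923, the next in size, had 136, 72.7 and 70.5 CPM in DB and 163, 133 and 120.1 CPM in DBSi. The other groups had 55.7, 60.3 and 41.8 CPM (DSi), 31.5, 41.5 and 30.7 CPM (D), and 22.3, 64.3 and 45.0 CPM (CK). DB-2, DB-3 and CK-2 came close to each other, while all 3 DBSi libraries were far above. The G5 mean was 116 ± 37.0 CPM (SD, n = 6) and the mean of the rest 43.7 ± 14.3 CPM (SD, n = 9), 2.65-fold apart.

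Among abundant genes on the higher side, Glyur000001s00000053 led. It had 1232, 1334 and 2001 CPM in DB and 1327, 1396 and 1511 CPM in DBSi, against 749, 1133 and 818 CPM in DSi, 433, 518 and 512 CPM in D and 830.1, 326 and 895 CPM in CK. DSi lay between the G5 groups and D, with DSi-2 close to DB-1. The next, Glyur000162s00009936, had 273, 299.9 and 321 CPM in DB and 229.8, 257 and 329.9 CPM in DBSi. It had 183, 222 and 217 CPM in DSi, 170.3, 219 and 181 CPM in D and 188, 116 and 215 CPM in CK, so DBSi-1 and DSi-2 all but met. The ratios of the 2 genes were 2.12 and 1.498.

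On the lower side the largest ratios belonged to scarce genes. Glyur001405s00033412 had 1.195, 1.23 and 0.931 CPM in DB and 0.601, 1.14 and 0.621 CPM in DBSi, which is 2 to 4 reads per library. It had 4.04, 4.50 and 4.20 CPM in DSi, 1.43, 5.26 and 9.72 CPM in D, and 3.24, 4.55 and 11.3 CPM in CK. D-1, at 5 reads, stood next to the G5 libraries, and the ratio of means was 5.63. Glyur002022s00030458 had 0.598, 2.46 and 1.24 CPM in DB and 2.10, 0.570 and 0.310 CPM in DBSi, against 2.49, 3.001 and 7.17 CPM in DSi, 3.44, 4.94 and 7.60 CPM in D and 3.24, 5.98 and 4.06 CPM in CK. DB-2 and DSi-1 had 8 reads each, so this separation lies within counting error. Its ratio of means was 3.84.

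The most abundant gene on the lower side was Glyur001069s00022473. It had 1347, 1516 and 1615 CPM in DB and 1054, 846 and 1091 CPM in DBSi. It had 1633, 1723 and 2563 CPM in DSi, 2757, 2295 and 3230.0 CPM in D, and 2478, 2821 and 3153 CPM in CK. DBSi was lowest, and DSi-1 and DSi-2 lay just above DB-3. The means were 1245 ± 297 CPM (SD, n = 6) with G5 and 2517 ± 562 CPM (SD, n = 9) without, 2.02-fold lower with G5. ONT.12476 came next in abundance, with 643, 619 and 551 CPM in DB and 594, 602 and 570.1 CPM in DBSi. It had 704, 745 and 918 CPM in DSi, 722, 696 and 959.7 CPM in D and 794, 781 and 748 CPM in CK. Its difference was 1.32-fold, typical of the abundant genes on this side.

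**Figure D2:**
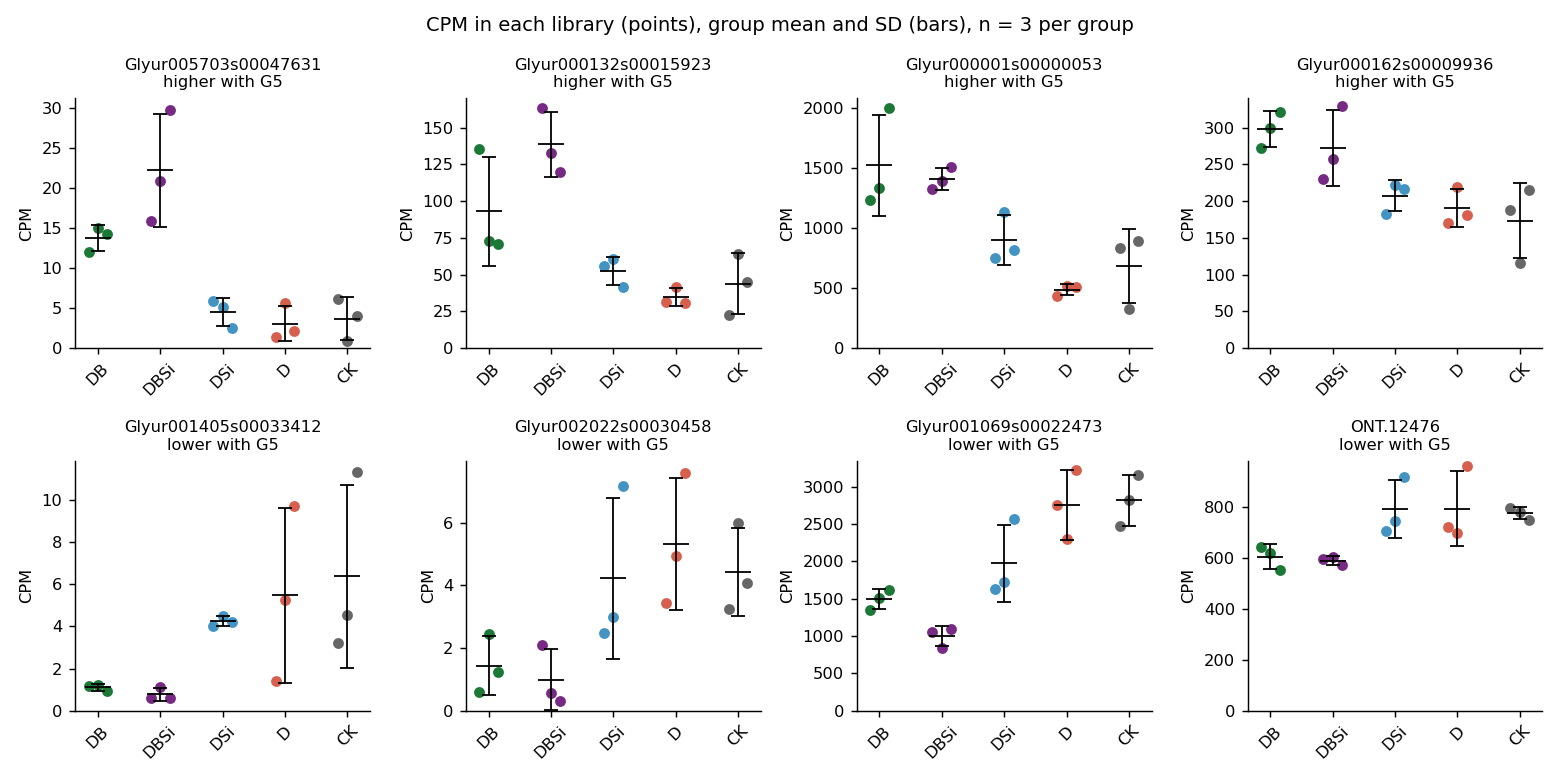
CPM of the 8 named genes by group (DB, DBSi, DSi, D and CK, left to right), each axis starting at 0. Points are libraries, and black bars are the group mean and SD of 3 libraries. In each panel the 6 DB and DBSi points lie on one side of the other 9, by the smallest margin in Glyur002022s00030458 and Glyur001069s00022473.

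The effect of G5 was set out separately without silicon (DB against D) and with silicon (DBSi against DSi), comparisons that have no library in common. Calls were made with limma at an adjusted p of 0.05 over all 22654 tested genes, which included all 191 members. In DB against D, 12 of 32 higher members were called higher, where 0.358% of all tested genes were, and 5 of 159 lower members were called lower, against 0.132%. In DBSi against DSi, 6 higher members were called higher (1.68% of tested genes) and 4 lower members lower (0.230%). With both G5 groups set against the other 3 groups, 30 higher and 135 lower members were called, against 2.80% and 2.67% of tested genes. The rule used all 3 contrasts, so nothing is read from these counts. The median log2 differences of the higher members were 1.03 in DB against D and 0.68 in DBSi against DSi, and those of the lower members -0.57 and -0.54; all tested genes had -0.06 and -0.11. Over all tested genes, 39.0% were above 0 in DBSi against DSi and 61.0% below 0, and 37.6% were above 0 with G5 against the rest.

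Called in both of the separate comparisons were 2 higher members and 1 lower member. The 2 made up 16.7% of the 12 higher members called in DB against D and 33.3% of the 6 called in DBSi against DSi. The 1 lower member made up 20% of 5 and 25% of 4. The share of all tested genes called in both was not counted, so nothing is read from this overlap. These members were picked out after their values were seen. Glyur000866s00031708 had 148, 126 and 156 CPM in DB against 78.0, 98.05 and 79.0 CPM in D, and 186, 189 and 182 CPM in DBSi against 119, 103 and 82.8 CPM in DSi. Glyur003157s00042086 had 44.8, 49.1 and 51.2 CPM in DB against 23.2, 29.3 and 30.4 CPM in D, and 80.5, 78.1 and 95.9 CPM in DBSi against 37.0, 40.2 and 32.4 CPM in DSi. CK libraries had 99.7, 108 and 111 CPM of Glyur000866s00031708 and 31.7, 41.0 and 33.4 CPM of Glyur003157s00042086. The lower member, Glyur002220s00035920, had 59.2, 68.4 and 81.6 CPM in DB against 146, 126 and 130.3 CPM in D. In DBSi it had 61.3, 50.8 and 42.2 CPM, against 89.0, 97.5 and 89.5 CPM in DSi. Its CK libraries stood at 85.4, 105 and 93.8 CPM, so DB-3 came close to CK-1 and D lay above CK. The rule itself kept DB apart from D and DBSi apart from DSi in each member.

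The other lower members called in DB against D were ONT.19489, Glyur000027s00001519, Glyur002540s00038281 and Glyur000020s00001842. They averaged 123 ± 18.8, 15.5 ± 3.23, 19.9 ± 3.56 and 19.95 ± 0.530 CPM in DB, against 323 ± 129.6, 33.1 ± 8.86, 38.6 ± 4.65 and 38.2 ± 4.06 CPM in D (SD, n = 3 each). Those called in DBSi against DSi were Glyur000283s00016955, Glyur000071s00005273 and Glyur000498s00016154. They averaged 1.09 ± 0.443, 11.04 ± 1.88 and 30.9 ± 3.72 CPM in DBSi, against 5.07 ± 0.616, 19.6 ± 2.18 and 51.8 ± 8.67 CPM in DSi (SD, n = 3 each). The counts rested on few libraries. Called higher members in DB against D numbered 3 without DB-1, 5 without DB-2, 1 without DB-3, 5 without DBSi-2, 7 without DSi-1 and 6 without DSi-2. Without D-1 they numbered 2, without D-2 7 and without D-3 5. Called lower members in that comparison numbered 2 or fewer without any one library other than CK-2, DBSi-3 or DSi-3. In DBSi against DSi, 3 higher members and 1 lower member were called without DSi-2, DSi-3, DBSi-2 or DBSi-3, and 2 lower members without CK-1, CK-2, CK-3 or D-1. With all groups, lower members called were 89, 86, 89, 80 and 71 without D-3, DB-3, DSi-3, DBSi-2 and DBSi-3. Without DB-3, DBSi-2, D-2 and CK-3 together they numbered 32.

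The rule was also applied to 14 libraries at a time, and the left-out library was then placed among them. Since those 14 were already separated, a left-out library at an arbitrary position would lie on the side of its own groups in 6 of 15 positions (40%) if it came from DB or DBSi, and in 9 of 15 (60%) if it came from DSi, D or CK. A gene on the own side is separated over all 15 libraries, as the listed members are, so this is no independent check of them. On the higher side the share ran from 52.4% (DB-3, 33 of 63 genes) to 91.7% (DBSi-3, 33 of 36) for DB and DBSi libraries, and from 62.5% (DSi-1, 30 of 48) to 100% (D-1, 31 of 31) for the others. On the lower side it ran from 62.5% (DB-2, 158 of 253) to 88.8% (DBSi-2, 159 of 179), and from 64.4% (DSi-2, 159 of 247) to 97.5% (D-3, 157 of 161). DSi-1 on the higher side and DSi-2 on the lower side thus lay close to 60%. These shares carry no test.

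The rule required DSi, D and CK to lie within 2-fold of each other but did not fix their order. On the higher side D was lowest of the 3 in 28 of 32 genes, where it was lowest in 40.8% of all tested genes, and DSi was highest in 26, against 36.5%. DSi exceeded D in all 32 higher members by limma's log2 difference, against 59.0% of tested genes, with a median difference of 0.40 against 0.07. D was below CK in 26 of the 32, against 58.7%, with a median of -0.20 against -0.07. In the plot of medians by library, DSi libraries stood at -0.29 to -0.09, CK libraries at -0.53 to -0.14 and D libraries at -0.75 to -0.31. All 3 D libraries lay below the 3 DSi libraries, D-2 and DSi-3 by a narrow margin, and D-2 lay within the range of CK.

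No single member passed the threshold in DSi against D or in D against CK. In DSi against D, limma called 0 of 191 members (0.0177% of tested genes were called higher and 0.00883% lower), while 12 of the 32 higher members had an unadjusted p under 0.05, all with DSi higher, against 5.72% of tested genes in that direction. In D against CK 0 of 191 were called (0% higher and 0.0486% lower), and 5 higher members had an unadjusted p under 0.05, all lower in D, against 6.07% of tested genes. These comparisons share the D libraries with each other, and the DSi, D and CK libraries all took part in choosing the genes. All members were measured in the same libraries and are not replicates of each other, so these counts are a description. With median-of-ratios scaling DSi exceeded D in 30 of the 32 (51.1% of tested genes) and with quantile scaling in 31 (47.6%). D was below CK in 22 (49.8%) and 21 (46.5%). Without D-1 the 2 counts were 29 and 23.

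In the lower members the order of DSi and D depended more on the library left out. DSi was below D in 114 of 159, against 41.0% of all tested genes, with a median difference of -0.05 against 0.07. The count was 59 without D-3 (38.1% of tested genes), the library in which lower members stood highest, at a median of 0.49. It was 143 with median-of-ratios scaling (48.9% of tested genes) and 132 with quantile scaling (52.4%). The median difference was then -0.12 with each, against 0.01 and -0.02 in all tested genes. D was below CK in 74 of 159 (58.7% of tested genes), with a median difference of 0.01. DSi was lowest of the 3 groups in 77 of 159 lower members (29.9% of tested genes) and D highest in 69 (24.3%).

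**Figure D3:**
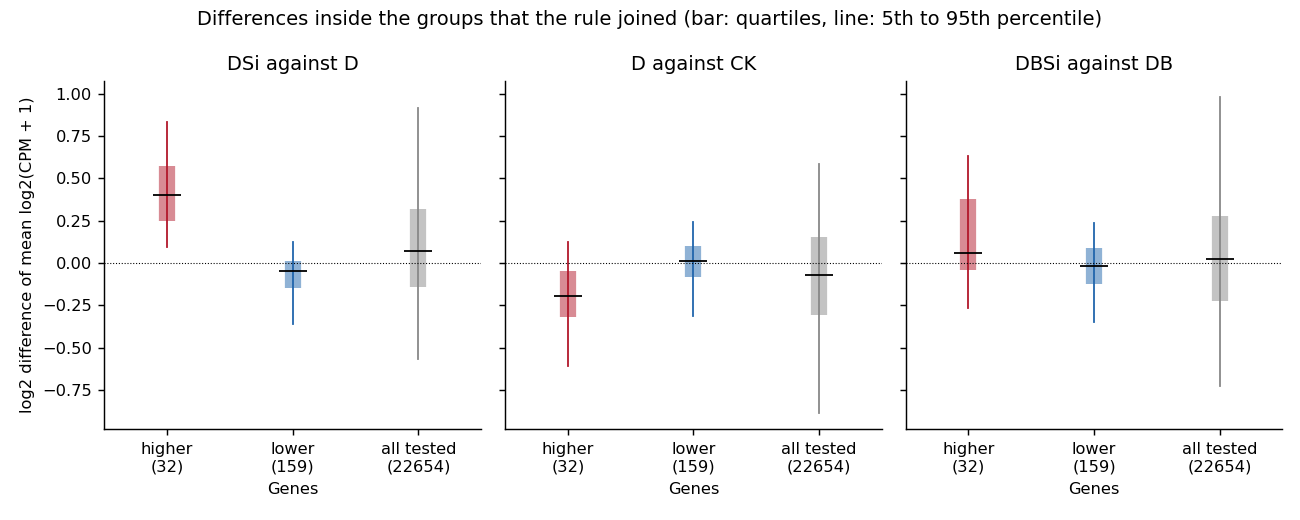
Log2 differences between groups that the rule joined, for DSi against D, D against CK and DBSi against DB, in the 32 higher genes, the 159 lower genes and all 22654 tested genes. Bars are quartiles, thin lines run from the 5th to the 95th percentile and ticks are medians; the median for DSi against D is 0.40 in the higher genes, -0.05 in the lower genes and 0.07 in all tested genes.

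Members had similar means in DBSi and in DB, as the rule's 2-fold limit required. DBSi against DB had a median log2 difference of 0.06 in higher members, 19 of which were above 0, and of -0.02 in lower members, 88 of which were below 0. The same comparison had 52.6% of tested genes above 0 and 47.4% below. One member, Glyur003157s00042086, was called by limma, with 84.8 ± 9.64 CPM in DBSi against 48.4 ± 3.25 CPM in DB (SD, n = 3 each), where 2.22% of tested genes were called higher and 0.225% lower. For the difference between the G5 effects with and without silicon, limma called 0 of 191 members, where 0.102% of tested genes were called positive and 0.0309% negative. It was below 0 in 24 of the 32 higher members, against 52.9% of tested genes, with a median of -0.33, and above 0 in 96 of the 159 lower members, against 47.1%. The value equals DBSi against DB minus DSi against D. With DBSi and DB held close by the rule, it largely restates the order of DSi and D given above. The rule used these libraries, so the counts are a description. At an unadjusted p under 0.05 limma listed 5 of 32 higher members and 1 of 159 lower members, with values below 0. Of all tested genes 3.93% were listed in that direction, a smaller share than in the higher members and a larger one than in the lower members.

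Isoforms gave a view of the members that the rule did not use directly. An isoform is one of the full-length transcript forms read from a gene. For 31 of 32 higher and 151 of 159 lower members, deposited isoforms accounted for every read of the gene in all 15 libraries. Higher members had a median of 3 isoforms and lower members of 2, and 19.4% and 36.4% had a single one. Among 16161 such tested genes whose highest group mean reached 5 CPM, the median was 2 and 37.7% had a single one. IDs beginning with ONT made up 3 of 32 higher and 4 of 159 lower members, against 6.16% of tested genes that reached 5 CPM. Those tested genes were scarcer, with a median level of 18.7 CPM, against 58.3 CPM in higher and 51.7 CPM in lower members. The part of level in these isoform and ID counts was not tested.

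The share of a gene read as its leading isoform was tested between G5 groups and the rest in genes with 2 or more isoforms and 10 or more reads in every library. limma called 0 of 25 higher and 0 of 92 lower members, where 0% of the 8773 genes tested were called. At an unadjusted p under 0.05 it listed 6 higher members (24.0%) and 17 lower members (18.5%), against 8.50% of all genes tested. The odds of the leading isoform were higher with G5 in 19 of the 25 and lower with G5 in 60 of the 92, while of all 8773 genes 4386 had higher and 4387 lower odds. Many lower members had few reads of other isoforms, as their leading isoform held a median of 97.1% of reads. With 0.5 reads added to each side, the odds of such genes largely follow the gene's total, which the rule used. In Glyur000837s00027488, for example, the log2 odds difference was -1.055, although the leading isoform held 100% of reads with G5 and 99.9% without. Nothing is therefore read from the counts over the 25 and 92 members. With 10 or more reads of both kinds in every library, a condition set after the data were seen, 14 higher and 21 lower members could be tested. None was called, against 0.965% of 1968 genes, and unadjusted p fell under 0.05 in 5 higher members (35.7%) and 4 lower members (19.0%), against 12.5%. The leading isoform had higher odds with G5 in 12 of the 14, and lower odds in 9 of the 21, while 984 of the 1968 genes lay on either side.

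The leading isoform and the remaining isoforms mostly pointed the same way. Where the remaining isoforms together averaged 1 CPM or more, they were higher with G5 in 20 of 20 higher members and lower in 51 of 56 lower members. Over all 5959 genes at that level, 46.9% had higher and 53.1% lower remaining isoforms. The median log2 ratio in the higher members was 0.88 for the leading isoform and 0.70 for the remaining ones, and in the lower members -0.49 and -0.54. Both parts enter the gene's total, which the rule used, so these are descriptions. In Glyur000132s00015923, with 8 isoforms, the leading one held 59.1% of reads with G5 and 45.6% without, and in Glyur001069s00022473, with 9 isoforms, 53.9% and 49.9%. Neither gene was called in isoform use (limma adjusted p 0.548 and 0.785), so no change in isoform use is read from these shares.

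**Figure D4:**
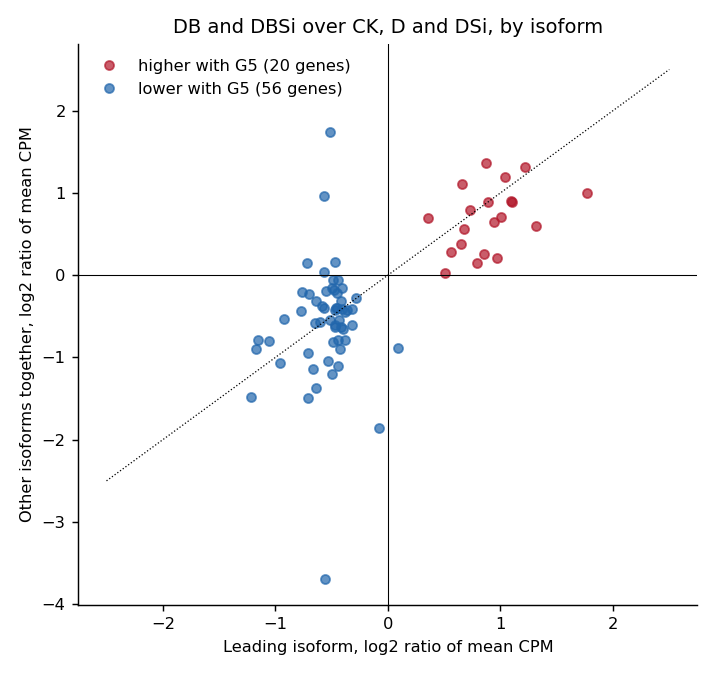
Log2 ratio of mean CPM in DB and DBSi over DSi, D and CK for the leading isoform (x axis) and for the other isoforms together (y axis), in 20 higher and 56 lower genes whose other isoforms averaged 1 CPM or more. The dotted line marks equal ratios. All 20 higher genes lie in the upper right, where both ratios are above 0, and 50 of the 56 lower genes in the lower left, where both are below 0.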

How the data were processed

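Expression was deposited by the authors as CPM per gene and per isoform for each of 15 libraries. Reads were aligned with minimap2, per the submitters' processing notes, which name no version for it, with genome build and counter not given in the sources used here. Whole reads were recovered from the CPM steps for 100% of values (tolerance 0.01). Isoforms were joined to genes by ID or, for 12039 loci, by equal reads in all 15 libraries. Genes with 1 CPM or more in at least 3 libraries were tested on log2(CPM + 1) with limma 3.58.1 in R 4.3.3, as 1 fit over all 5 groups with a trend, and p-values were adjusted by the Benjamini-Hochberg method over all tested genes. Isoform use was tested as the log odds of the leading isoform, with 0.5 reads added to each side. Fold changes on the log2 scale understate those of low genes. edgeR 4.0.16 and DESeq2 1.42.0 on the recovered reads were alternatives, and the fits were tested on simulated data. Reads came from 14 PCR cycles without molecular identifiers, so read numbers cover counting error only. The members and lists were chosen with earlier results of these data known. Genes named in full were the 2 with the largest ratio and the 2 most abundant per direction. No pairing of libraries by replicate number was seen, so no block was used. Lists of pathways and organ markers could not be matched, as the files hold no gene names.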

Additional observations from a re-analysis of the deposited data

How the results depend on the processing

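As listed above, there were 32 higher and 159 lower genes. Median-of-ratios scaling gave 65 and 75, and leaving out DB-3, D-2 and CK-3 together, chosen after seeing the data, gave 98 and 329. Leaving out 1 library gave 31 to 63 and 161 to 253. Called higher members in DB against D (12) numbered 4 without trend, 22 with DESeq2, 3 with only the compared groups and 0 without those 3 libraries; without 1 library, 1 to 17. Called lower members (5) numbered 1 with no filter, 10 with a filter of 5 CPM, 0 without trend, 2 with edgeR, 33 with DESeq2, 0 with only the compared groups and 0 without those 3 libraries; without 1 library, 0 to 7. In DBSi against DSi, higher members (6) numbered 3 without trend and 17 with DESeq2, and 3 to 7 without 1 library. Lower members (4) numbered 2 with no filter, 7 with a filter of 5 CPM, 7 with quantile scaling, 1 with edgeR, 13 with DESeq2 and 1 with only the compared groups, and 1 to 5 without 1 library. With G5 groups against the rest, lower members (135) numbered 86 with edgeR and 77 without those 3 libraries. Without 1 library they numbered 71 to 131, and higher members (30) numbered 24 to 32. Over all 22654 tested genes, calls also changed with the tool. In DB against D, 81 were higher and 30 lower with limma, 71 and 17 with edgeR, and 305 and 151 with DESeq2. In DBSi against DSi they numbered 381 and 52, 441 and 33, and 687 and 130. With G5 groups against the rest they numbered 635 and 605, 839 and 313, and 1145 and 620. DSi was below D in 59 to 144 of the lower members, and above D in 29 to 32 of the higher members, without 1 library. D was below CK in 22 to 30 of the higher members. Leaving out DBSi-2 along with DB-3, D-2 and CK-3, also chosen after seeing the data, gave 114 higher and 373 lower genes, 0 higher and 0 lower members called in DB against D, 2 and 1 in DBSi against DSi, and 25 and 32 with G5 groups against the rest. Of 107 alternatives other than leaving out 1 library, 71 lay within 1.5 times the value reported. The cause was not tested.

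The replicate block gave 7 higher and 2 lower members in DB against D and 3 and 2 in DBSi against DSi. Libraries with the same number had deviations correlated at -0.223 to 0.334 over 30 pairs, with 8 over 0.1. Those with different numbers had -0.412 to 0.291 over 60 pairs, with 20 over 0.1. In 6 of 15 libraries the best correlate in another group had the same number. No pairing by number was seen in these values. At 1 read per 0.247 to 0.329 CPM, members of a few CPM rest on few reads, which limits how firmly their separation can be stated.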
